A study of Mus musculus with 47 samples.

Results

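The tumours compared here are 2 Pokemon transgenic and 3 ThPOK transgenic mouse T-cell lymphoblastic tumours, taken by their titles from 47 tumours on 1 array each. Pokemon is the protein of *Zbtb7a* and ThPOK that of *Zbtb7b*. All 5 tumours are labelled TLX1 negative lymphoma, and the material is total RNA of cells labelled T-cell lymphoblasts. The other 42 tumours come from 12 backgrounds: TLX1 transgenic (6), Tal1 transgenic (2), LMO1 transgenic (3), beta-catenin transgenic (3), Nup98HoxD13 transgenic (3), Tal1-LMO2 (3) and olig1-LMO1 (3) double transgenic, E2A knockout (2), rag E2A knockout (2), p53 knockout (3), Ikaros Plastic (3), and *Cdkn2a* knockout with retroviral insertional mutagenesis (9). The promoter of each transgene, its line or founder, strain, age and sex, and whether each tumour came from its own mouse, are not stated in the labels used here. The p-values therefore measure only the spread between tumours, some of which may be technical, and transgene, strain and sex cannot be told apart.

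Pokemon and ThPOK are paralogous repressors of the POK family, in which a BTB/POZ domain that recruits corepressors is joined to zinc fingers that bind DNA. Pokemon, also called LRF, represses the tumour suppressor ARF in mouse cells, and in the bone marrow it opposes Notch signals that would turn B-cell progenitors into T cells. ThPOK is the switch of CD4 lineage choice in the thymus: CD4+ CD8+ thymocytes that switch it on silence the CD8 genes and become CD4 helper cells, while Runx3 drives the CD8 lineage. Each repressor can act as an oncogene when forced on in T cells.

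Signals are MAS5 values in arbitrary units. Differences are Pokemon minus ThPOK on the log2(signal + 15.9) scale, given ± SE from limma fitted on all 47 arrays, and a gene was called at a Benjamini-Hochberg adjusted p under 0.05 over 8810 tested genes. An exact permutation test of 2 against 3 tumours has 10 assignments and cannot go below p = 0.1. Calls therefore rest on the spread pooled over the 14 backgrounds, which assumes that these tumours vary like the rest. Array medians lay between 67.1 and 69.6 in Pokemon and between 71.6 and 76.3 in ThPOK tumours. The *Gapdh* control log2 3'/5' ratio was -0.28 and -0.22 in Pokemon tumours and -0.32 to -0.24 in ThPOK tumours, against -0.53 to 2.86 in the other 42. The beta-actin control ratio did not overlap, with 0.13 and 0.18 in Pokemon tumours and 0.26 to 0.29 in ThPOK tumours. In the other 42 it ran from 0.11 to 2.73. The Pokemon pair correlated at r = 0.964 over the log2 values of the tested genes, the ThPOK tumours at 0.931 to 0.962, and Pokemon with ThPOK tumours at 0.907 to 0.926. ThPOK 1 stood somewhat apart from ThPOK 2 and ThPOK 3, with which it correlated at 0.931 and 0.935. *Cd3e* (1560 and 1992 in Pokemon, 1917, 1830 and 1436 in ThPOK tumours) and the other T cell identity markers were present: 12 of 12 tested markers exceeded the array median in Pokemon tumours, and 11 or 12 in ThPOK tumours.

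The Pokemon tumours were high in the gene of their transgene, whose RNA the array does not separate from that of the mouse's own copy. *Zbtb7a* (chromosome 10) had signals of 884 and 862 in the Pokemon tumours, against 26.1, 59.1 and 52.5 in the ThPOK tumours. The difference was 3.89 ± 0.38 (adjusted p = 2.43e-08), the smallest p of the comparison, and none of the other 42 tumours, at 6.07 to 137, came near the Pokemon level. *Zbtb7b* (chromosome 3) depended on the probe set. The one used in the fit had 37.8 and 7.13 in Pokemon tumours and 46.1, 50.6 and 35.6 in ThPOK tumours, all under the array medians, and was not called (-0.76 ± 0.80, adjusted p = 0.721). A second probe set of the gene separated the groups, with 4.45 and 38.7 in Pokemon tumours against 124, 97.4 and 98.6 in ThPOK tumours. On that probe set, 2 of the other 42 tumours reached the lowest ThPOK signal. Whether either probe set matches the transgene's transcript is not stated in the sources used here.

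Among the lineage genes, the CD8 coreceptor differed. *Cd8a*, the CD8 alpha chain, had 536 and 1998 in Pokemon tumours, against 47.5, 23.1 and 26.5 in ThPOK tumours, which was higher in Pokemon by 4.48 ± 1.23 (adjusted p = 0.0467). All 3 ThPOK signals lay under their array medians, so the size depends on the pseudocount. The call was lost in 9 of 18 alternatives, among them each fit that left out 1 of the 5 tumours, the higher pseudocount, quantile normalization, no filter and the *Xist* covariate, and the direction held in all 18. The second *Cd8a* probe set gave 370 and 1316 in Pokemon tumours and 6.96, 23.9 and 5.15 in ThPOK tumours. Among the other 42 tumours, 3 had *Cd8a* under the array median: TLX1 transgenic 2, p53 knockout 2 and the 8th *Cdkn2a* knockout tumour.

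*Cd8b1*, the CD8 beta chain, did not follow *Cd8a*. Its signals were 1505 and 524 in Pokemon tumours and 1781, 179 and 607 in ThPOK tumours, overlapping and all above the array medians (0.59 ± 1.13, adjusted p = 0.871). The log2 ratio of *Cd8b1* to *Cd8a*, with the same pseudocount, was 1.46 and -1.90 in Pokemon tumours and 4.82, 2.32 and 3.88 in ThPOK tumours. It ran from -1.28 to 2.09 in the other 42, so 0 of them reached the lowest ThPOK value, and the 3 other tumours with low *Cd8a* lay below it too. A ratio of probe sets shows that the chains differed unequally between tumours, not how much of either is made. *Cd4*, the helper coreceptor, had 366 and 605 in Pokemon tumours against 52.2, 735 and 830 in ThPOK tumours, and was not called (0.47 ± 0.88, adjusted p = 0.865). ThPOK 1 was thus under its array median in both *Cd8a* and *Cd4*. *Runx3*, the CD8 lineage factor, had 41.0 and 76.7 in Pokemon tumours and 80.6, 77.5 and 70.1 in ThPOK tumours and was not called (-0.34 ± 0.37, adjusted p = 0.735).

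**Figure D1:**
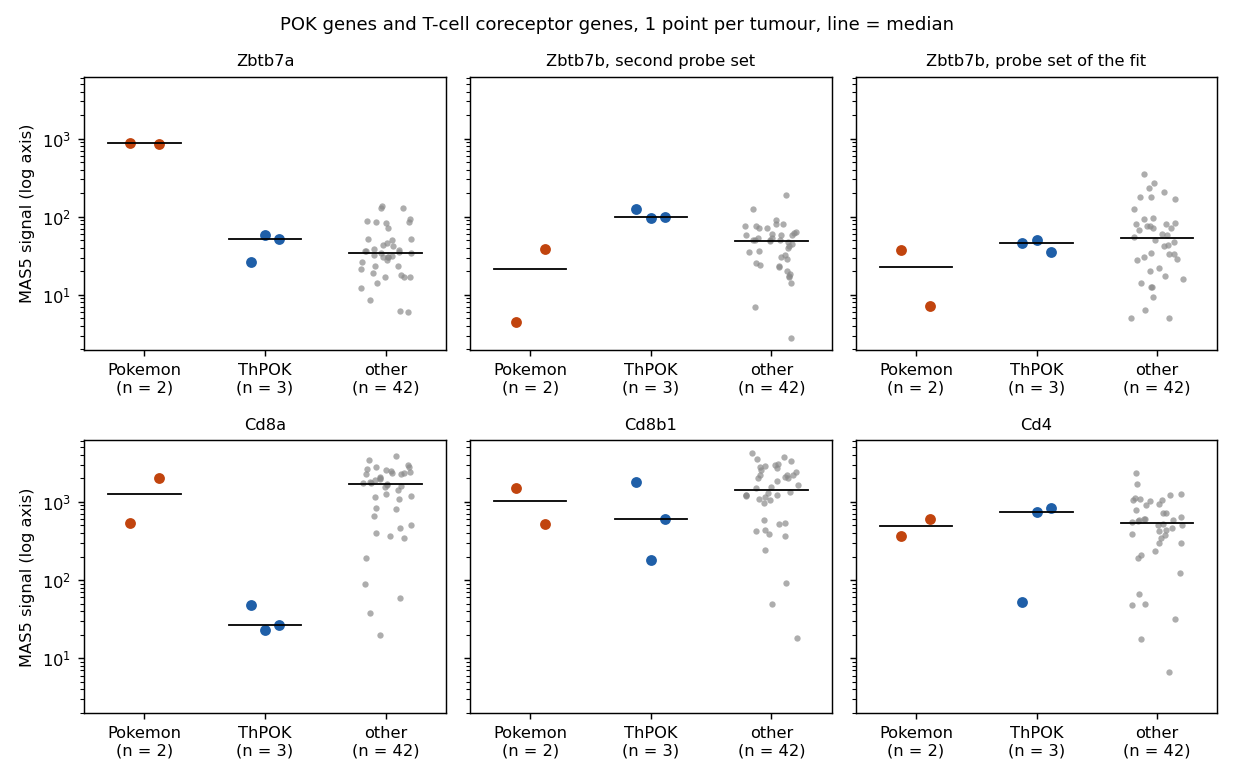
MAS5 signal on a log axis of *Zbtb7a*, both *Zbtb7b* probe sets, *Cd8a*, *Cd8b1* and *Cd4* in each Pokemon tumour (n = 2), ThPOK tumour (n = 3) and tumour of the other 12 backgrounds (n = 42), with the median of each group as a line. *Zbtb7a* at 884 and 862 stands above all 45 other tumours, and *Cd8a* at 23.1 to 47.5 in the ThPOK tumours lies near the bottom of the series. *Cd8b1* varied more among the ThPOK tumours, at 1781, 179 and 607, with ThPOK 2 low, against a median of 1431 in the other 42.

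Across the tested genes 163 were called, or 1.85%. Of these, 66 were higher in Pokemon tumours (0.749%) and 97 lower (1.1%), and 123 differed by at least 1 log2 unit. In all 163 the groups did not overlap, as in 45.5% of tested genes (19.5% with the Pokemon signals above, 26% below). An unadjusted p under 0.05 was seen for 1414 genes, or 16%, and the median difference of all tested genes was -0.07. The number of calls rested on each tumour but 1: it was 19 without Pokemon 1, 12 without Pokemon 2, 39 without ThPOK 2 and 30 without ThPOK 3, against 129 without ThPOK 1. The direction of the 163 stayed the same in all 5 of these fits, while 6 remained called in every one of them. These 6 were *Zbtb7a*, *Cap1* and *Apbb3*, higher in Pokemon tumours, and *Ccdc107*, *2610001J05Rik* and *Birc6*, lower. Lost in all 5 were 49, among them *Cd8a*, *Igkv8-30*, *Aen*, *Stc1*, *Plekha5*, *Sox14* and *Il6ra*. *Birc6*, an inhibitor of apoptosis named after its values were seen, had 348 and 368 in Pokemon tumours against 1196, 1013 and 864 in ThPOK tumours.

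The other 12 backgrounds show on which side a difference lay. They are shared by both of the following comparisons, so the values stand side by side only. Pokemon tumours against the mean of the other 12 gave 98 called genes (1.11%), 40 of them higher (0.454%) and 58 lower (0.658%). ThPOK tumours against the same mean gave 1090 (12.4%), 610 of them higher (6.92%) and 480 lower (5.45%). Of the 66 genes higher in Pokemon than in ThPOK tumours, 10 were called in the Pokemon comparison, 47 in the ThPOK comparison and 9 in neither. Of the 97 lower genes, 13 were called in the Pokemon comparison and 61 in the ThPOK comparison, with 24 in neither and 1 in both. A comparison with 3 tumours has a smaller error than one with 2. With 2 ThPOK tumours, the ThPOK comparison gave 493 calls without ThPOK 1, 401 without ThPOK 2 and 315 without ThPOK 3. The counts of calls were not tested against each other.

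**Figure D2:**
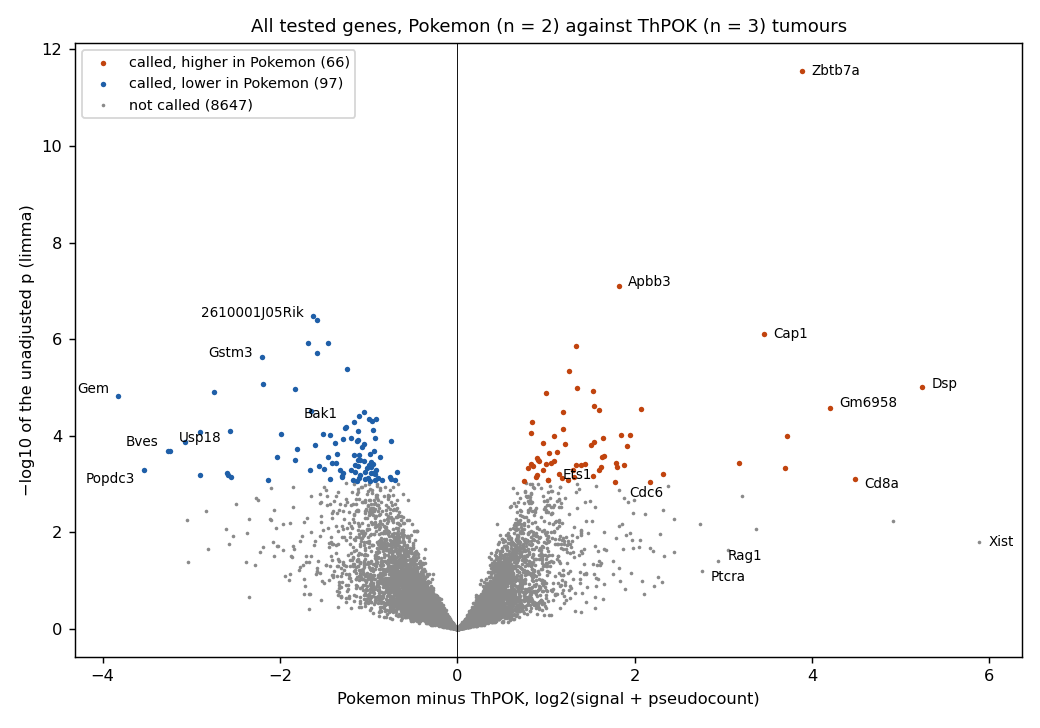
Difference between Pokemon (n = 2) and ThPOK (n = 3) tumours on the x axis, in log2 units, against -log10 of the unadjusted limma p on the y axis, 1 point per tested gene. The 66 genes higher and 97 genes lower in Pokemon tumours that passed the adjusted threshold are coloured, *Zbtb7a* stands highest, and *Xist* has the largest difference without passing.

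The 15 largest called differences with higher signals in Pokemon tumours ran from 1.85 to 5.25 log2 units. *Dsp*, which encodes the desmosome protein desmoplakin, had 744 and 1809 in Pokemon tumours against 28.4, 16.0 and 5.27 in ThPOK tumours (5.25 ± 1.03, adjusted p = 0.00596). It was also called against the other 12 backgrounds (3.82), where 2 of 42 tumours reached the lower Pokemon signal, and all 3 of its probe sets differed the same way. *Gm6958* had 884 and 1346 in Pokemon tumours against 37.4, 41.3 and 54.8 in ThPOK tumours (4.21 ± 0.88, adjusted p = 0.0103). None of the other 42 tumours, at 1.68 to 452, reached the Pokemon signals of *Gm6958*. *Susd4*, a complement regulator, had 429 and 1818 in Pokemon tumours, against 311, 43.3 and 35.3 in ThPOK tumours, so that ThPOK 1 lay close to Pokemon 1. *Sox14*, an HMG-box transcription factor, had 159 and 73.8 in Pokemon tumours and 4.37 to 14.3 in ThPOK tumours. With *Zbtb7a*, these were the 5 of the 15 called in Pokemon tumours against the other 12 backgrounds.

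Of the other 10, 9 were called lower in ThPOK tumours than in the other 12 backgrounds, and *Ralgapa1* in neither comparison. *Cap1*, an actin regulator, had 635 and 694 in Pokemon tumours against 43.0, 46.9 and 47.9 in ThPOK tumours (3.46 ± 0.59, adjusted p = 0.00138). Its second probe set gave 555 and 560 in Pokemon tumours and 14.2, 14.6 and 26.8 in ThPOK tumours. The median of the other 42 was 809, yet 3 of them were as low as the ThPOK tumours, so low *Cap1* was not particular to ThPOK. *Spsb4*, a SOCS-box protein gene, had 238 and 436 in Pokemon tumours and 41.9, 0.927 and 1.84 in ThPOK tumours. *Dgcr8*, a subunit of the microRNA processing complex, had 85.5 and 58.0 in Pokemon tumours against 3.55 to 6.47 in ThPOK tumours (2.07 ± 0.43, adjusted p = 0.0103). *Igkv8-30*, an immunoglobulin kappa variable segment, had 263 and 187 in Pokemon tumours and 2.31, 2.502 and 2.46 in ThPOK tumours. *Nt5dc2*, *Suco*, *Ralgapa1*, *Ift80* (intraflagellar transport) and *Ddhd1* (a phospholipase), with *Cd8a* above, complete the 15.

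Among the 15 largest differences with lower signals in Pokemon tumours, from 2.13 to 3.83 log2 units in size, 14 were called in ThPOK tumours against the other 12 backgrounds and 1, *Slc45a2*, in Pokemon tumours. *Slc45a2*, a melanosome transporter gene, had 4.08 and 4.92 in Pokemon tumours and 59.7, 87.2 and 86.9 in ThPOK tumours. *Gem*, a small GTPase gene, had 5.24 and 3.03 in Pokemon tumours against 16.2, 748 and 917 in ThPOK tumours (-3.83 ± 0.77, adjusted p = 0.00678). ThPOK 1 was far below the other two here, and in several of these genes. *Usp18*, which encodes the protease that removes ISG15 from proteins, had 61.9 and 47.5 in Pokemon tumours, against 136, 1460 and 1294 in ThPOK tumours (-3.24 ± 0.79, adjusted p = 0.0266). *Sox13*, a transcription factor of gamma-delta T cells, had 43.7 and 46.0 in Pokemon tumours and 126, 1241 and 729 in ThPOK tumours. *Dipk1b* had 109 and 50.8 in Pokemon tumours and 247, 853 and 1359 in ThPOK tumours, again lowest of the ThPOK tumours in ThPOK 1.

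Genes with like levels in the 3 ThPOK tumours included *Stc1*, which encodes the hormone stanniocalcin. Its signals were 139 and 87.9 in Pokemon tumours against 1253, 1077 and 597 in ThPOK tumours (-2.90 ± 0.78, adjusted p = 0.0427). *Trim12a*, a TRIM family gene, had 52.7 and 0.603 in Pokemon tumours and 216, 167 and 258 in ThPOK tumours. *Gstm3*, a glutathione transferase gene, had 40.8 and 41.9 in Pokemon tumours against 235, 249 and 261 in ThPOK tumours, but its second, dim probe set did not follow (0.17). *Slc40a1* (the iron exporter ferroportin) and *Fcna* (ficolin A) are macrophage genes. *Slc40a1* had 50.5 and 71.9 in Pokemon tumours and 850, 155 and 632 in ThPOK tumours, and *Fcna* 165 and 53.1 in Pokemon tumours and 471, 966 and 584 in ThPOK tumours. Of the 28 myeloid markers given below, 22 also had a difference below 0. Their summed signals overlapped, however, with 15828 in Pokemon 1 against 14214 in ThPOK 2. The part of myeloid cells in the values of *Slc40a1* and *Fcna* was not tested. *Chd7* (a chromatin remodeller), *C1qtnf1* and *Tktl1* (a transketolase-like enzyme) complete the 15. Of the 30 genes, 14 had several probe sets, and in 13 of these all had the same sign.

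**Figure D3:**
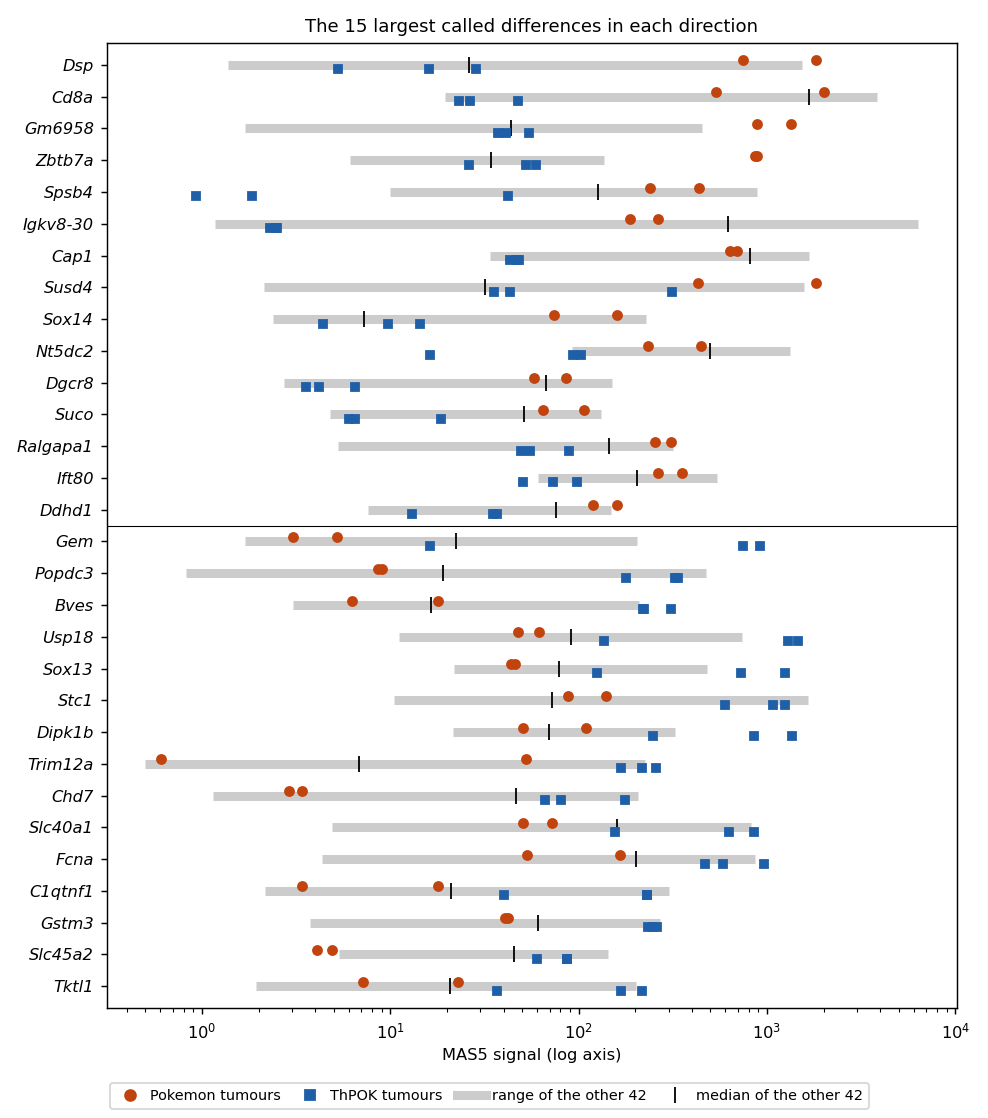
MAS5 signals on a log axis of the 15 largest called differences in each direction, with Pokemon tumours as circles, ThPOK tumours as squares, and the range and median of the other 42 tumours as a grey bar and a tick. Above the line, *Zbtb7a* and *Gm6958* lie beyond the grey bar in Pokemon tumours. Below it, *Gem*, *Usp18* and *Sox13* are high in ThPOK 2 and ThPOK 3 and much lower in ThPOK 1.

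*Popdc3* and *Bves*, both encoding Popeye domain membrane proteins, are direct neighbours on chromosome 10. *Popdc3* had 8.58 and 8.98 in Pokemon tumours against 178, 336 and 325 in ThPOK tumours (-3.53 ± 0.93, adjusted p = 0.0381). *Bves* had 18.0 and 6.27 in Pokemon tumours against 222, 311 and 221 in ThPOK tumours (-3.27 ± 0.79, adjusted p = 0.0266). The 3 ThPOK tumours were alike in both genes, and 1 and 0 of the other 42 reached their lowest signals of *Popdc3* and *Bves*. Raised signals were not particular to ThPOK. Over all arrays, *Popdc3* exceeded the array median in 11 and *Bves* in 9, the 3 ThPOK tumours among them. *Cdkn2a* knockout tumour 4, for example, had 160 for *Popdc3* and 210 for *Bves*. Both calls were lost without Pokemon 1, without Pokemon 2, without ThPOK 2 and without ThPOK 3, and with a pseudocount of 1. The call of *Popdc3* was also lost with the *Xist* covariate. The next genes on either side with a probe set, named after their values were seen, did not share the high ThPOK signals. *Prep* had 489 and 479 in Pokemon tumours and 340, 250 and 294 in ThPOK tumours, and *Hace1* lay between 41.1 and 54.8 in all 5. Only 1 other pair of adjacent tested genes was called, *Ccdc97* and *Hnrnpul1* on chromosome 7, both lower in Pokemon tumours by 1.00 and 0.88 log2 units.

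The promoters of the largest differences were searched for short motifs in the 250 bases before the annotated start, from RefSeq on GRCm38.p6. Windows existed for 19 of the 30 genes. GACCACC, a core bound by POK factors (reverse complement GGTGGTC), was in 0 of the 19, against 3.02% of 7144 tested genes with a window and 2.34% of all 32851 windows. The RUNX core TGTGGT (reverse complement ACCACA) was in 1 of 19, against 13% of tested genes. The ETS core GGAAGT (reverse complement ACTTCC) was in 3 of 19, against 27.1% of tested genes. Both strands were searched, and the first 2 motifs can share the letters ACCAC. Shown are the promoters of *Dsp*, *Cd8a* and *Cap1*, whose large differences were seen on several probe sets each, and of *Tktl1*, which holds the RUNX match, in capitals.
Dsp (chr13:38151044-38151293, plus strand): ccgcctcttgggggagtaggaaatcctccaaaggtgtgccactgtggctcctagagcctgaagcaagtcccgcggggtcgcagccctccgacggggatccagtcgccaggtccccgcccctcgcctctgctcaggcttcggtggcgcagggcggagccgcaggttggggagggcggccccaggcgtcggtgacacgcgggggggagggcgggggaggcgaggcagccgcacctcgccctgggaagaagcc
Cd8a (chr6:71373177-71373426, plus strand): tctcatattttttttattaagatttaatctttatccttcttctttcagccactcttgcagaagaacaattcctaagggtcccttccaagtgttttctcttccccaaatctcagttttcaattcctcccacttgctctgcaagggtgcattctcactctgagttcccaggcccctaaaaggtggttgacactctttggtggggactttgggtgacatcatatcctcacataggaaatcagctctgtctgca
Cap1 (chr4:122886077-122886326, minus strand): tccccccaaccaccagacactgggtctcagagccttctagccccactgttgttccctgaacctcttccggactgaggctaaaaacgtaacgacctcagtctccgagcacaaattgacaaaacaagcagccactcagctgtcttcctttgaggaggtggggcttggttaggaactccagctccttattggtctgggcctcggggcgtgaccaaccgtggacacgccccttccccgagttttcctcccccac
Tktl1 (chrX:74177009-74177258, plus strand): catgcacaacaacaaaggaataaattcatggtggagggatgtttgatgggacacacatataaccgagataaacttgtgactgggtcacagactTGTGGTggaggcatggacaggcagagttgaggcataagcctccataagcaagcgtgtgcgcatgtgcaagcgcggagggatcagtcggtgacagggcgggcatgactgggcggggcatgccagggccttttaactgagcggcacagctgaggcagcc
The letters searched are not in the first 3 windows, which says nothing of binding there or elsewhere.

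Genes were then grouped into 35 lists of pathways, lineage stages and cell types. Of their 541 distinct tested members 7 were called, or 1.29%, against 1.85% of all tested genes. These were *Zbtb7a*, *Cd8a* and *Ets1*, higher in Pokemon tumours, and *Il6ra*, *Aen*, *Bak1* and *Usp18*, lower. Of 19 tested BTB zinc finger repressors, only *Zbtb7a* was called, and 7 differences were above 0. *Bcl6*, a POK repressor of germinal centre and follicular helper cells, had 85.3 and 130 in Pokemon tumours and 46.6, 46.8 and 28.5 in ThPOK tumours (1.12 ± 0.51, adjusted p = 0.271). Its second probe set overlapped, with 37.8 and 51.9 in Pokemon tumours and 48.0, 63.4 and 34.0 in ThPOK tumours (-0.07). Of 18 tested corepressor genes none was called by limma at the adjusted threshold, 1 had an unadjusted p under 0.05, and the median was 0.07.

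Among 22 tested coreceptor and lineage genes, 2 were called higher in Pokemon tumours and 0 lower, against 0.749% and 1.1% of all tested genes. Differences above 0 were seen in 15 of the 22, against 44.2% of all tested genes. The median was 0.47, against -0.07 over all tested genes. *Ets1*, a transcription factor of T-cell development, had 2216 and 2541 in Pokemon tumours against 1429, 1161 and 820 in ThPOK tumours (1.09 ± 0.27, adjusted p = 0.0335). It was called in ThPOK tumours against the other 12 backgrounds (-1.28), where 3 of the other 42 tumours were as low as the highest ThPOK signal. *Cbfb*, the partner of the RUNX proteins, just missed, with 2225 and 2382 in Pokemon tumours and 1161, 1341 and 1332 in ThPOK tumours (0.84 ± 0.24, adjusted p = 0.0513). *Ikzf1*, which encodes Ikaros, had 689 and 408 in Pokemon tumours and 192, 137 and 140 in ThPOK tumours (1.68 ± 0.71, adjusted p = 0.222).

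Genes of the cortical thymocyte stages had large values but wide error. Of 16 tested CD4+ CD8+ thymocyte genes 1, *Cd8a*, was called, and the median was 0.68. *Rag1*, the recombinase, had 2986 and 2787 in Pokemon tumours and 1092, 168 and 248 in ThPOK tumours (2.94 ± 1.38, adjusted p = 0.286). *Ptcra*, the pre-T-cell receptor alpha chain, had 1144 and 1818 in Pokemon tumours and 85.1, 185 and 481 in ThPOK tumours (2.76 ± 1.44, adjusted p = 0.352). The groups did not overlap in either gene, and neither passed the test. Signals did not overlap in 45.5% of all tested genes, and in 7 of the 16 CD4+ CD8+ thymocyte genes. *Ccr9*, a thymic homing receptor, had the opposite order, with 414 and 228 in Pokemon tumours and 1416, 4158 and 3113 in ThPOK tumours (-3.03 ± 1.44, adjusted p = 0.290).

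Of 22 tested Notch pathway genes none was called by limma, 2 had an unadjusted p under 0.05, and the median was 0.26. *Nrarp*, a target and feedback inhibitor of Notch, had 531 and 958 in Pokemon tumours and 175, 142 and 168 in ThPOK tumours (2.04 ± 0.85, adjusted p = 0.211). *Notch1* itself had 2786 and 3474 in Pokemon tumours and 1656, 3505 and 4069 in ThPOK tumours, which overlap (0.12 ± 0.98, adjusted p = 0.975). *Ccnd2*, a cyclin, had 85.6 and 82.0 in Pokemon tumours and 436, 1480 and 486 in ThPOK tumours, and was not called (-2.81 ± 1.17, adjusted p = 0.218).

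No member of the replication and mitosis lists was called between Pokemon and ThPOK tumours, though most differences lay above 0. Of 38 tested DNA replication genes 36 had a difference above 0, against 44.2% of all tested genes, with a median of 0.53. In 28 of them both Pokemon signals lay above all 3 ThPOK signals, as in 19.5% of all tested genes. None was called by limma, and 10 had an unadjusted p under 0.05. *Cdc6*, which loads the replicative helicase, had 992 and 915 in Pokemon tumours against 210, 417 and 196 in ThPOK tumours (1.82 ± 0.52, adjusted p = 0.0583). *Cdc45*, a helicase subunit, had 759 and 607 in Pokemon tumours and 247, 312 and 219 in ThPOK tumours (1.35 ± 0.43, adjusted p = 0.0856). In both genes the groups stood apart by a wide margin, yet neither passed. Of 28 tested mitosis genes 22 had a difference above 0, with a median of 0.38 and 0 calls by limma. Against the other 12 backgrounds, 6 of the 38 replication and 2 of the 28 mitosis genes were called lower in ThPOK tumours. In Pokemon tumours 0 were. Over all tested genes, 5.45% were called lower in ThPOK tumours and 0.658% in Pokemon tumours. *Myc* had 1411 and 1174 in Pokemon tumours and 748, 681 and 728 in ThPOK tumours (0.83 ± 0.45, adjusted p = 0.381), and the median of 23 MYC pathway genes was 0.07. The members of a list share regulation, so their counts are no independent repeats.

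*Cdkn2a*, the locus of ARF, had signals of 6.29 and 24.2 in Pokemon tumours and 22.6, 31.9 and 35.3 in ThPOK tumours, all under the array medians, and was not called (-0.61 ± 0.56, adjusted p = 0.669). Of 22 tested ARF and p53 pathway genes 1, *Aen*, an apoptosis-enhancing nuclease, was called lower in Pokemon tumours, against 1.1% of all tested genes. Differences below 0 were seen in 10 of the 22. *Aen* had 233 and 216 in Pokemon tumours against 499, 417 and 548 in ThPOK tumours (-1.06 ± 0.27, adjusted p = 0.0336). *Bak1*, a pro-apoptotic effector and the only one called of 12 tested BCL2 family genes, had 161 and 148 in Pokemon tumours against 463, 382 and 344 in ThPOK tumours (-1.26 ± 0.28, adjusted p = 0.0177). Against the other 12 backgrounds, *Aen* was called higher in ThPOK tumours (0.55, adjusted p = 0.0356) and not called in Pokemon tumours (-0.51, adjusted p = 0.303). *Bak1* was called in neither (0.52 in ThPOK, -0.75 in Pokemon tumours). For each gene, 9 of the other 42 tumours reached the lowest ThPOK signal and 4 were at or below the higher Pokemon signal. *Bbc3*, which encodes PUMA, had 43.8 and 42.7 in Pokemon tumours and 219, 83.5 and 129 in ThPOK tumours, without a call (-1.34 ± 0.54, adjusted p = 0.194). *Bcl2l11*, which encodes BIM, overlapped, with 1948 and 861 in Pokemon tumours and 868, 2029 and 915 in ThPOK tumours (0.14 ± 0.54, adjusted p = 0.944).

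*Il6ra*, the interleukin-6 receptor alpha chain, had 31.6 and 15.5 in Pokemon tumours against 87.8, 84.7 and 93.9 in ThPOK tumours (-1.44 ± 0.39, adjusted p = 0.0469). It stayed called in 7 of 18 alternatives and in none that left out 1 of the 5 tumours. Its signalling partner *Il6st* (gp130) had 459 and 478 in Pokemon tumours and 205, 225 and 106 in ThPOK tumours, the opposite order, and just missed (1.37 ± 0.39, adjusted p = 0.0570). *Usp18* was the only one called of 24 tested interferon response genes, whose median was -0.27. *Irf7*, the interferon master regulator, had 41.8 and 62.3 in Pokemon tumours and 211, 69.6 and 70.1 in ThPOK tumours (-0.82 ± 0.47, adjusted p = 0.407). The high *Usp18* of ThPOK 2 and ThPOK 3 was thus not matched by *Irf7*, which was highest in ThPOK 1.

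**Figure D4:**
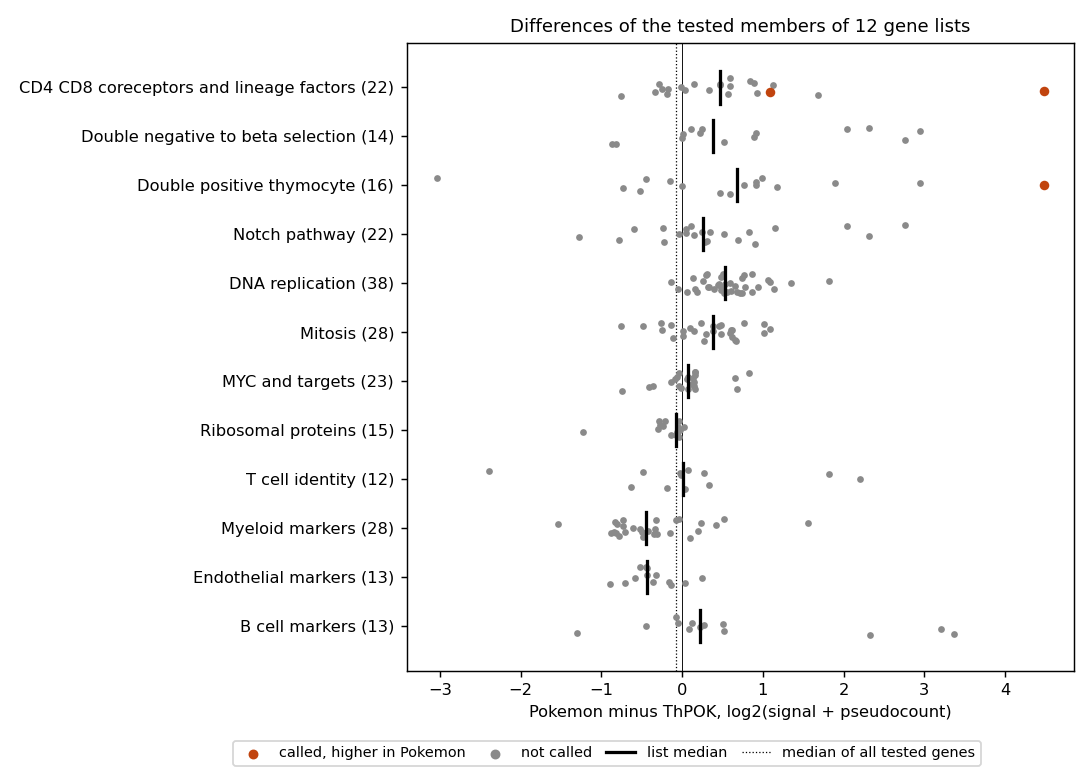
Difference between Pokemon (n = 2) and ThPOK (n = 3) tumours, in log2 units, of each tested member of 12 gene lists, with the number tested in brackets, the list median as a bar and the median of all tested genes (-0.07) as a dotted line. The replication and mitosis medians lie at 0.53 and 0.38 with no called member, and the myeloid and endothelial medians lie below 0.

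In bulk tumour RNA, fewer cells of a type and less RNA per cell cannot be told apart. No member of the marker lists of other cell types was called by limma between Pokemon and ThPOK tumours. The macrophage genes *Slc40a1* and *Fcna* and the immunoglobulin segment *Igkv8-30*, which are on none of these lists, were called. The summed signal of 28 myeloid markers was 15828 and 10016 in Pokemon tumours and 22637, 14214 and 18221 in ThPOK tumours, and 22 of the 28 differences were below 0 (55.8% of all tested genes), with a median of -0.45. *Lyz2*, a macrophage lysozyme, had 2235 and 1754 in Pokemon tumours and 4767, 2786 and 3391 in ThPOK tumours (-0.84 ± 0.46, adjusted p = 0.380). Of 13 endothelial markers 11 were below 0, with a median of -0.44. The summed signal of 13 B cell markers was 2764 and 3161 in Pokemon tumours and 2675, 666 and 436 in ThPOK tumours. In the Pokemon tumours and ThPOK 1, much of this is *Ighm*, at 1834 and 2311 in Pokemon tumours and 2115, 87.0 and 21.4 in ThPOK tumours. The *Ighm* probe sets did not all follow, with differences from -0.98 to 3.36 log2 units. *Igha* had 263 and 229 in Pokemon tumours and 10.1, 10.4 and 17.3 in ThPOK tumours (3.21 ± 0.95, adjusted p = 0.0689). The part of B cells in *Igkv8-30*, low in all 3 ThPOK tumours, was not tested.

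Sex and background cannot be told apart. *Xist*, expressed from the inactive X chromosome of females, had 3321 and 5387 in Pokemon tumours and 61.4, 54.5 and 52.0 in ThPOK tumours, the largest difference of all genes, but was not called (5.89 ± 2.32, adjusted p = 0.186). The Y-linked *Eif2s3y* had 1.27 and 1.19 in Pokemon tumours and 492, 17.3 and 23.9 in ThPOK tumours. The Y-linked *Kdm5d*, with 7.73 and 13.6 in Pokemon tumours and 135, 117 and 12.9 in ThPOK tumours, did not separate the groups, since ThPOK 3 was as low as the Pokemon tumours. With the *Xist* level as a covariate, added after the values were seen, 93 genes were called, 30 of them higher and 63 lower in Pokemon tumours, and 75 were among the 163.

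The genes given next were chosen from the 32 (0.363%) called with the same sign in both comparisons with the other 12 backgrounds, of 98 calls for Pokemon and 1090 for ThPOK tumours, 17 above and 15 below the others. The mean of both kinds against the other 12 gave 587 calls (6.66%), 280 higher (3.18%) and 307 lower (3.48%). These comparisons share the 42 other tumours, so nothing is read from the size of the overlap, and strain was not given, so transgene family and strain cannot be told apart here. *Erdr1*, a gene of the pseudoautosomal region, had 32.9 and 76.6 in Pokemon tumours and 54.1, 46.8 and 27.0 in ThPOK tumours, against a median of 3499 in the other 42. *AI506816* had 1.07 and 2.97 in Pokemon tumours and 3.26, 20.1 and 3.42 in ThPOK tumours, against a median of 514 in the others. Low signals were not particular to these 5: *AI506816* was under the array median in 18 of the other 42 tumours, from 5 backgrounds, and *Erdr1* in 2. *Srrm2*, *Fbxo17*, *Ap2b1*, *Supt16* (a histone chaperone subunit), *Aldoa* (a glycolytic enzyme) and *Canx* (an endoplasmic reticulum chaperone) were the next largest below the others.

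Above the others, *Mndal*, an interferon-inducible gene of the Ifi200 cluster, had 2122 and 2923 in Pokemon tumours and 2726, 611 and 281 in ThPOK tumours, against a median of 105. *Gfra1*, a receptor of the neurotrophic factor GDNF, had 328 and 348 in Pokemon tumours and 281, 351 and 682 in ThPOK tumours, against 10.8. *Tcte1*, a testis gene, had 345 and 234 in Pokemon tumours and 119, 254 and 240 in ThPOK tumours, against 32.6. *Cd5l*, a macrophage product, and *Fcgr2b*, an inhibitory Fc receptor, also belong here, with *Bst1*, *Rpgrip1* and *Ndufs5*. Of the 28 myeloid markers, 8 were called higher in ThPOK tumours than in the other 12 backgrounds and 0 in Pokemon tumours. Over all tested genes, 6.92% were called higher in ThPOK tumours and 0.454% in Pokemon tumours. With so low a share, 0 of 28 says little about Pokemon tumours. The summed signals of these markers, given above, overlapped between Pokemon and ThPOK tumours. The part of myeloid cells in the shared genes was not tested.

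**Figure D5:**
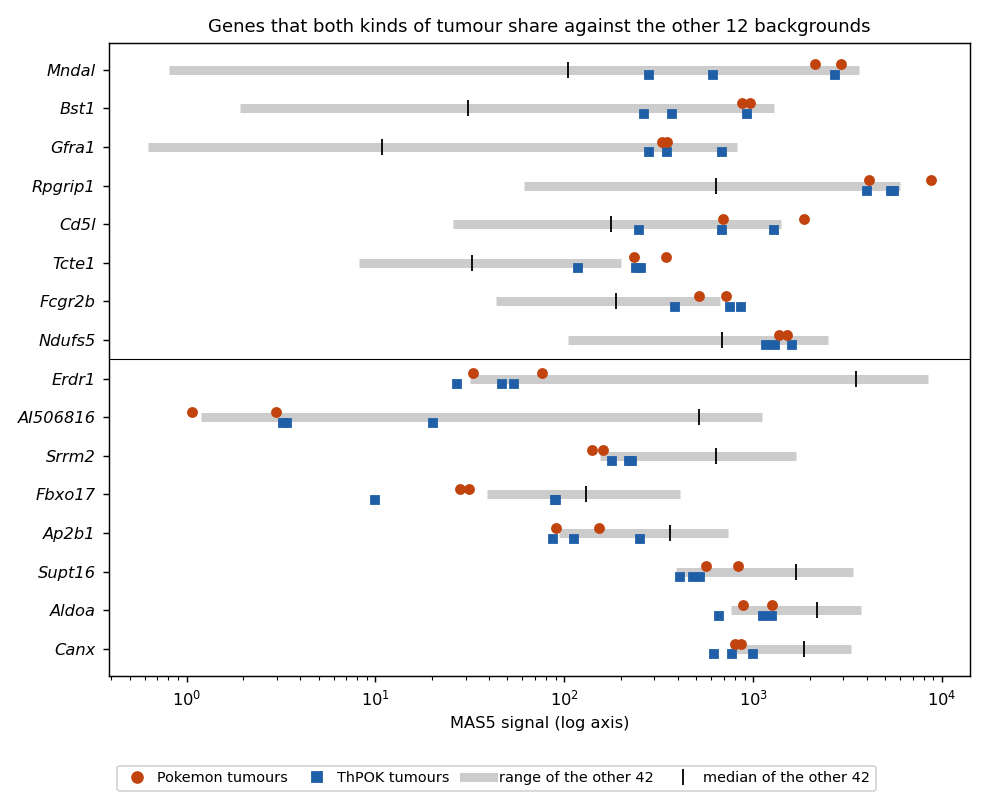
MAS5 signals on a log axis of the 8 largest differences in each direction that Pokemon tumours (circles) and ThPOK tumours (squares) share against the other 12 backgrounds, whose range and median are the grey bar and the tick. *Erdr1* and *AI506816* lie at the bottom of the range of the other 42 tumours, whose medians are 3499 and 514.

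A few of the 8810 tested genes set 1 background apart from every other tumour. To lie beyond all others is easier for 2 tumours than for 3. How many genes other sets of 2 or 3 tumours would give was not counted, so nothing is read from these counts. Both Pokemon signals lay above all 45 other tumours in 13 of the 8810 genes and below all in 21. Beside *Zbtb7a* and *Gm6958*, these included *Skp2*, the F-box protein that targets the inhibitor p27 for degradation, with 1160 and 1161 in Pokemon tumours against 455, 678 and 394 in ThPOK tumours and at most 967 in the others. This held on 2 of its 6 probe sets. *Skp2* was not called against ThPOK (1.20 ± 0.47, adjusted p = 0.183). *Plekha5*, with 290 and 391 in Pokemon tumours and 98.5, 95.9 and 127 in ThPOK tumours, was called (1.53 ± 0.41, adjusted p = 0.0438). That call held in 8 of 18 alternatives and in no fit that left out 1 of the 5 tumours. *Ddx6*, an RNA helicase of processing bodies, was low in Pokemon tumours, with 359 and 409 against 680, 713 and 925 in ThPOK tumours (-0.97 ± 0.25, adjusted p = 0.0357). Only 1 of its 3 probe sets put it lowest, and another had 827 and 745 in Pokemon tumours against 340, 781 and 584 in ThPOK tumours (0.53). *Dexi*, *Pvalb* and *Prrc2a* were likewise lowest in Pokemon tumours without a call. For *Prrc2a* this held on 1 of 2 probe sets, and the other, a dim one, had the opposite sign (0.44).

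The 3 ThPOK signals lay above all 44 other tumours in 19 of the 8810 tested genes and below all in 22. *2610001J05Rik* had 373 and 347 in Pokemon tumours against 1021, 994 and 1472 in ThPOK tumours (-1.63 ± 0.26, adjusted p = 0.000885), and the others reached at most 578. *Ccdc107* had 144 and 129 in Pokemon tumours against 403, 401 and 521 in ThPOK tumours (-1.58 ± 0.26, adjusted p = 0.000885). Both genes were alike among the 3 ThPOK tumours, and the medians of the other 42 were 343 and 194. *2610001J05Rik* was highest on 1 of its 2 probe sets, the other being dim, at 0.586 to 15.6 in the 5 tumours. *Apbb3*, an adaptor of the amyloid precursor protein, had 85.5 and 106 in Pokemon tumours against 24.98, 15.2 and 8.504 in ThPOK tumours (1.82 ± 0.27, adjusted p = 0.000344). *Hif1a*, the hypoxia-inducible factor subunit, had 695 and 630 in Pokemon tumours and 447, 402 and 436 in ThPOK tumours, while the others lay between 589 and 1580. *Hif1a* was not called between Pokemon and ThPOK tumours (0.61 ± 0.28, adjusted p = 0.271). *Ubxn8* and *Zfp277* were likewise highest, and *Ier5* and *Nisch* lowest, in ThPOK tumours. *Hif1a*, *Ier5* and *Nisch* were lowest on 1 probe set each, of 4, 3 and 4, and the other 3 *Nisch* probe sets had differences below 0, the opposite sign.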

How the data were processed

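RNA was isolated with Trizol and turned into biotin-labelled cRNA, per the labels' protocols. The authors deposited 1 MAS5 signal intensity per probe set and array, per the submitters' processing notes, already scaled: the 2% trimmed mean was 250.1 on each array to within rounding. The MAS5 version is not given in the sources used here. From 22690 probe sets, those with 1 gene symbol whose signal exceeded the array median in at least 2 arrays were kept, the one of highest mean standing for its gene (8810 genes tested). Values were log2(signal + 15.9), the pseudocount being the 25th percentile. limma 3.58.1 in R 4.3.3 fitted 14 background means with an intensity trend, after being tested on simulated data. Named were 10 genes chosen for the pathway (*Tcf7* had no tested probe set), the 15 largest non-overlapping called differences each way with the higher group above the mean array median, up to 4 members of lowest p per list (2 for marker lists), the 8 largest shared differences each way and 4 genes per extreme. The members and lists were chosen with earlier results of these data known. Alternatives covered pseudocount, scaling, filter, probe set, weights, block, covariates and left-out tumours. Precision is limited by the number of arrays. The p53 gene is not reported here.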

Additional observations from a re-analysis of the deposited data

Results flagged for a closer look

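The *Zbtb7b* probe set that the fit did not use carried signal in the ThPOK tumours: 4.45 and 38.7 in Pokemon tumours against 124, 97.4 and 98.6 in ThPOK tumours, so the lowest ThPOK signal, 97.4, exceeded both Pokemon signals. In the other 42 tumours it ran from 2.83 to 187, with 6 above the array median. No outlier test was made within groups of 2 and 3 tumours.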

How the results depend on the processing

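The 163 calls between Pokemon and ThPOK tumours became 319 with the probe set of largest interquartile range per gene, 71 with only the 5 arrays fitted (35 shared with the 163), 1749 with array weights and 93 with the *Xist* covariate. The share of calls higher in Pokemon was 40.5%, against 57.7% with only the 5 arrays. Leaving out 1 tumour gave 12 to 129 calls, 6 to 102 for Pokemon against the other 12 backgrounds (98 with all tumours), 315 to 1051 for ThPOK (1090) and 152 to 401 for both together (587). Array weights gave 1200, 2638 and 2064 in these. The 7 called list members became 4 with quantile normalization, 15 with the other probe set rule, 84 with array weights and 1 to 6 with a tumour left out. The other alternatives kept each count within 1.5 times, and leaving out 3 TLX1 arrays of high control ratio gave 213. The cause was not tested. Over 18 alternatives, of which 2 were added after seeing the data, 158 of the 163 genes kept their direction, and 5 stayed called in each: *Zbtb7a*, *Cap1*, *Birc6*, *Ccdc107* and *2610001J05Rik*. With the other probe set rule *Ddx6* turned to 0.53 and *Nisch* to -0.19. The title numbers did not pair the tumours (correlations of deviations -0.05 and -0.01), and a replicate block gave 133 calls. A fit of only the 5 arrays was not run for comparisons with other backgrounds.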
